A study of Homo sapiens with 6 samples.

Results

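The regions described here were found in 1 of 6 lists of accessible chromatin, the list whose peaks carry the code CCRF_WT2, and in none of the 5 others. They were chosen by merging overlapping peaks of all lists (1 bp or more) on chromosomes 1 to 22 and X into union regions and keeping those in which only the CCRF_WT2 list had a peak. There were 2465 such regions of 32037 in the union. The lists come from ATAC-seq of CCRF-CEM, an established human T lymphoblast leukaemia line, as wild-type parent cells that express SLFN11 or as cells with a knockout of the SLFN11 gene. Each genotype was treated with 100 nM camptothecin for 2 h, with 100 nM camptothecin for 4 h, or with DMSO, the solvent. Each of the 6 groups had 1 library. Whether the knockout cells are 1 clone is not given in the sources used here.

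The treatment behind these regions rests on which label is followed. The code CCRF_WT2 stands in the title of the parent sample given camptothecin for 2 h, but the list is recorded under the parent DMSO sample. By the title codes, CCRF_WT4 is parent 4 h and CCRF_WT is parent DMSO, whereas the record places them at parent 2 h and parent 4 h. The knockout lists are shifted in the same way. By the title codes CB45_KO_2, CB45_KO_4 and CB45_KO are knockout 2 h, 4 h and DMSO, and by the record they are knockout DMSO, 2 h and 4 h. Code and record disagreed for all 6 lists, and no value used here settles the placement. The regions are therefore named by the list code below. Their membership is the same under both placements, and only their treatment label changes.

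In ATAC-seq a transposase cuts DNA that nucleosomes leave uncovered and attaches sequencing adapters there, so promoters and enhancers in use stand out as peaks. Camptothecin traps topoisomerase I on DNA, and replication forks that meet the trapped enzyme stall or break. SLFN11 is recruited to stressed forks, is known to open chromatin there, and sensitises cells to drugs of this kind. In a bulk library, a site open in few cells and a site open weakly in many cells cannot be told apart. Genes were not located here, since neither hg19 gene models nor hg19 sequence were used, and regions are given by hg19 position counted from 1.

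The regions held by the CCRF_WT2 list alone were weak and narrow peaks. Their median fold enrichment of the summit over local background, a value of the authors' peak caller, was 4.24, with quartiles at 3.75 and 4.80 and a highest value of 9.59. The other 21200 peaks of the same list had a median of 6.98, with quartiles at 5.14 and 9.24 and a highest value of 55.1. Median width was 194 bp for the regions held alone (quartiles 157 and 256 bp, range 132 to 745 bp) and 498.5 bp for the other peaks (303 and 720 bp, 132 to 3207 bp). A width of 170 bp or less was found in 882 regions (35.8%, 95% Wilson interval 33.9 to 37.7%), against 1296 other peaks (6.11%, 5.80 to 6.44%). More than 1 summit was listed in 43 regions (1.74%), against 6728 other peaks (31.7%). Presence or absence of a peak and its strength come from the same peak calls, so these differences describe the rule and support nothing further. The intervals reflect counting error and nothing else. A single library stood for each group, so treatments could not be tested against each other.

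**Figure D1:**
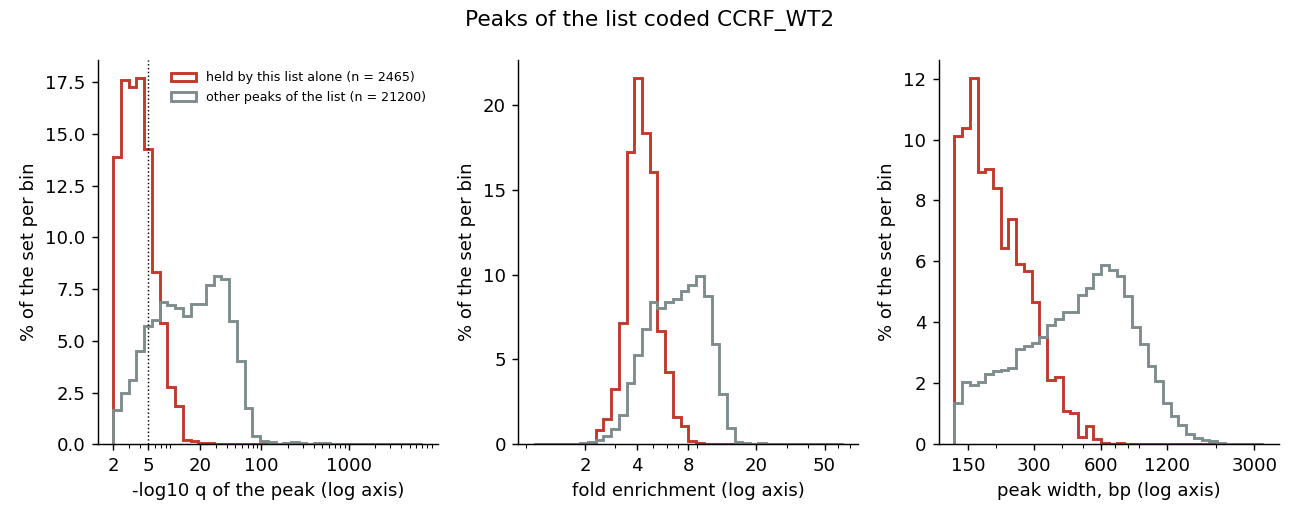
Distributions of significance, fold enrichment and width (log axes) for the 2465 CCRF_WT2 peaks held by that list alone (red) and the 21200 other peaks of the list (grey), as the percentage of each set per bin; the dotted line marks a -log10 q of 5. The regions held alone sit at the low end of each scale, with medians of 4.24-fold and 194 bp, against 6.98-fold and 498.5 bp for the other peaks.

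A stricter threshold, a -log10 q of at least 5 (the ninth column of each list), was cleared by 678 of the 2465 regions, or 27.5% (25.8 to 29.3%). Of all merged peaks of the CCRF_WT2 list, 79.7% cleared it, and of the 21200 others 85.8% did. The median -log10 q was 3.74 for the regions held alone (quartiles 2.62 and 5.21), against 15.5 for the other peaks (7.16 and 31.3). A -log10 q of at least 10 was reached by 64 regions. They were 62 of the 4755 CCRF_WT2 peaks from 10 to under 20 (1.30%). At 20 or more they were 2 of 8801 (0.0227%). The regions nearest the threshold did not stand apart in other values. Just above it were a 192 bp region on chromosome 16 at 776939 to 777130 (-log10 q 5.0016, 3.83-fold), a 138 bp region on chromosome 2 at 232395140 to 232395277 (5.0022, 4.90-fold) and a 174 bp region on chromosome 16 at 88847628 to 88847801 (5.006, 3.62-fold). Just below it were a 303 bp region on chromosome 7 at 5595773 to 5596075 (4.995, 4.08-fold) and 2 regions on chromosome 2 that share a -log10 q of 4.990 and a fold of 5.08, at 10197553 to 10197714 and at 122568746 to 122568959.

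Few reads covered the summits of most of these regions. The summit pileup, which is the peak caller's count of reads over the summit after any extension, was recovered from the deposited fold and p. Its median was 11 in the regions held alone (quartiles 9 and 14, range 8 to 105), against 29 in the other peaks (17 and 51). The lowest pileup in any of the 6 lists was 8, and 332 of the regions had exactly that pileup at the summit. A further 365 had a pileup of 9, and 905 had 10 to 12, while 80 had 25 or more. The share of CCRF_WT2 peaks that no other list held was 56.1% (52.1 to 60.0%) at a pileup of 8 and 0.655% (0.527 to 0.814%) at 25 or more.

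Since pileups are whole numbers and many regions lay on the lowest background of the library, values repeated exactly. Background was within 0.001 of its lowest value, 1.29, in 545 regions (22.1%), against 741 other peaks (3.50%). The 2465 regions held 1215 distinct pairs of fold and -log10 q. The most frequent pair, 3.93-fold with a -log10 q of 2.59, occurred in 162 regions, each with a pileup of 8. The next were 4.37-fold in 131 regions (pileup 9) and 4.80-fold in 92 regions (pileup 10). Rank order among such regions is therefore a matter of single reads.

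CCRF_WT2 peaks in regions of more lists were stronger at each step. Of the 23341 union regions with a CCRF_WT2 peak, 2465 were in that list alone (10.6%), between 2112 and 3043 were in 2, 3, 4 or 5 lists, and 11070 (47.4%) were in all 6. In the order from 1 to 6 lists, the median -log10 q of the CCRF_WT2 peaks was 3.74, 5.19, 6.20, 7.71, 11.4 and 29.6. Their median width was 194, 242, 282, 331, 428 and 674 bp. The share of -log10 q of at least 5 was 27.5%, 53.1%, 64.8%, 76.1%, 88.7% and 98.0%. The quartile ranges of neighbouring classes overlapped from 1 to 5 lists, whereas those of regions in 1 list and in all 6 were apart for significance, width and pileup.

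**Figure D2:**
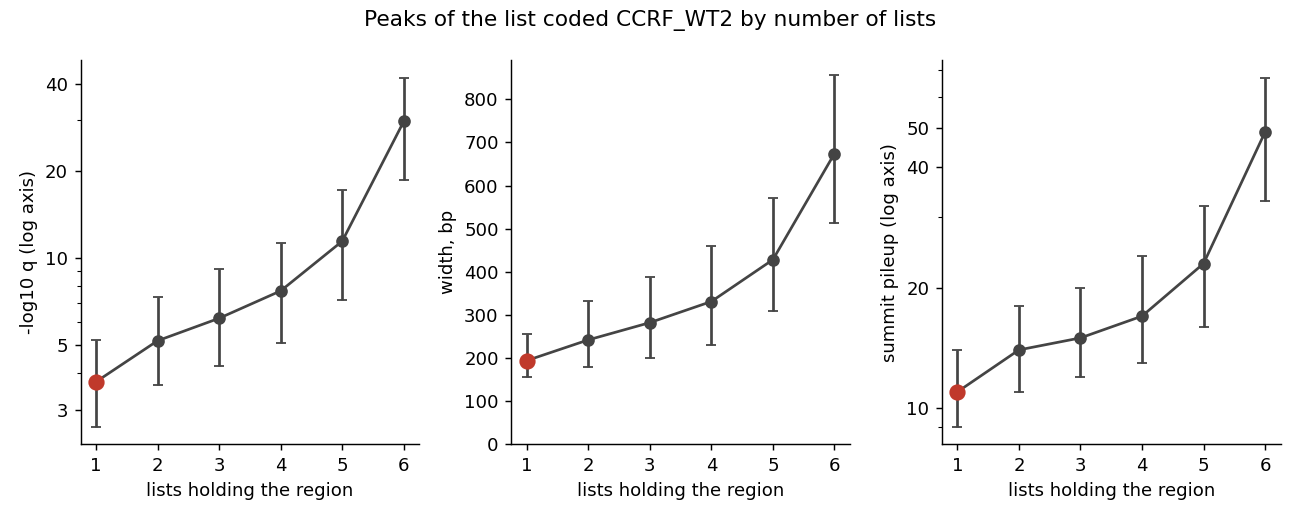
Median -log10 q (log axis), width in bp and summit pileup (log axis) of CCRF_WT2 peaks against the number of lists holding the region, with bars from the first to the third quartile; red marks the regions held by the CCRF_WT2 list alone. The medians climb from 3.74 to 29.6, from 194 to 674 bp and from 11 to 49 reads.

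Regions held by 1 list alone were found in every library. They made up 27.3% of the union, and 28.2% of them (27.3 to 29.1%) belonged to CCRF_WT2. The list coded CCRF_WT2 held 2465 regions alone, against 1968 for CCRF_WT4, 1498 for CB45_KO_2, 1258 for CB45_KO_4, 1163 for CB45_KO and 393 for CCRF_WT. As a share of each list's own regions these were 10.6%, 9.2%, 7.33%, 6.74%, 6.16% and 2.83%. CCRF_WT2 was also the longest list, with 23665 merged peaks against 14205 to 21617, and longer lists can hold more regions alone. Median summit pileup over all merged peaks was 26 in CCRF_WT2 and 29 in CCRF_WT4. It was 20 in CB45_KO_2, 18 in CB45_KO_4, 19 in CB45_KO and 17 in CCRF_WT. The part of list length and pileup in the numbers held alone was not tested. With every list shortened to its 14205 most significant peaks, CCRF_WT2 held 424 regions alone. Only 88 of these were among the 2465, because the others lost a partner when the weaker peaks of another list were removed. The corresponding numbers of the other lists were not computed. Whether CCRF_WT2 leads at equal length is therefore not known here.

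The number also rests on the list that shares most with CCRF_WT2. Regions held by CCRF_WT2 and 1 other list numbered 1452 for CCRF_WT4, against 339 for CB45_KO_2, 279 for CB45_KO, 244 for CB45_KO_4 and 84 for CCRF_WT. Without CCRF_WT4, 4031 regions were held by CCRF_WT2 alone. Without any 1 of the 4 other lists the number lay between 2556 and 2828. Under the title codes, CCRF_WT2 and CCRF_WT4 are the 2 camptothecin libraries of parent cells, and under the record they are parent DMSO and parent 2 h.

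The regions held alone in other lists were much like those of CCRF_WT2. Their median widths were 177 to 198 bp, against 194 bp for CCRF_WT2, and their median pileups were 10 or 11, against 11. The share with a -log10 q of at least 5 was 27.5% in CCRF_WT2 and 28.9% (27.0 to 31.0%) in CCRF_WT4. It was lower in the remaining lists, at 21.6% in CCRF_WT and between 16.2% and 18.7% in the knockout lists. Within each class of significance, the share of peaks held alone was highest in CCRF_WT2 below a -log10 q of 5. It was 47.0% (44.6 to 49.4%) of CCRF_WT2 peaks with a -log10 q from 2 to under 3, against 42.1% (39.7 to 44.7%) in CCRF_WT4, 25.0% to 32.5% in the knockout lists and 11.6% in CCRF_WT. From 5 to under 10 it was 11.55% in CCRF_WT2 (10.7 to 12.4%), against 11.60% in CCRF_WT4 (10.7 to 12.6%). At 20 or more, 2 of 8801 CCRF_WT2 peaks were held alone. Whether the lists differ was not tested.

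**Figure D3:**
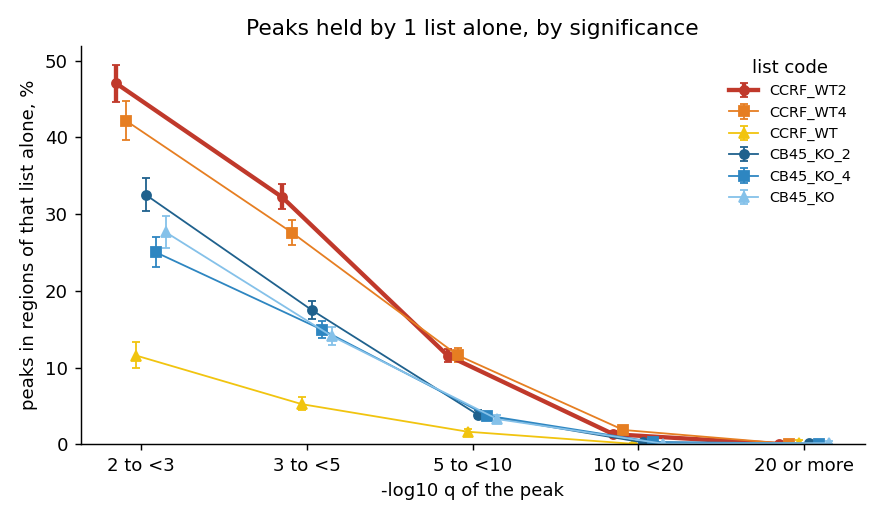
Percentage of each list's merged peaks that lie in regions of that list alone, by class of -log10 q, with 95% Wilson intervals (counting error only). In each of the 6 lists the share is lower at each step up to 10 to under 20, where CCRF_WT2 is at 1.30%, against 47.0% in its lowest class; at 20 or more no list is above 0.151%.

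Some of the regions lay below the reach of the other lists. Every list ends at a q of 0.01, but the p that this corresponds to differs between lists. The lowest -log10 p was 4.42 in CCRF_WT2 and 4.44 in CCRF_WT4, between 4.55 and 4.61 in the knockout lists, and 4.75 in CCRF_WT. Of the 2465 regions, 247 (10.0%) had a -log10 p below the lowest one listed in CCRF_WT. Between 110 and 153 regions fell below that of a knockout list, and 19 below that of CCRF_WT4. A peak of the same p would not be listed there, so absence from those lists cannot be read as a difference for these regions. For the remaining regions, the p that the same site had in another library is not known here. Their absence from another list is therefore no measure of a difference either.

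The region of greatest fold enrichment, 9.59, spanned 38016312 to 38016477 on chromosome 12. This 166 bp region had a pileup of 29 on a background of 2.13 and lay 7092 bp from the longest stretch of its chromosome without a peak in any list (3.16 Mb). Next came chromosome 11, 50676315 to 50676487, at 9.55-fold and 173 bp, which was 914888 bp from the corresponding stretch of 3.43 Mb. The following regions were wider. On chromosome 9, positions 8695141 to 8695430 reached 8.73-fold over 290 bp, with a pileup of 19. On chromosome 2, positions 197024868 to 197025242 reached 8.39-fold over 375 bp, with a pileup of 25. The region at 50900563 to 50900997 of chromosome 13 (8.30-fold) spanned 435 bp, and the one at 74442950 to 74443234 of chromosome 6 (8.04-fold) spanned 285 bp. None of these 6 had a peak of another list within 6 kb, the smallest gap being 6276 bp, at the chromosome 13 region. After them, 7 regions shared a fold of 7.86 with a pileup of 17, among them 109112870 to 109113022 of chromosome 1, 159010826 to 159010965 of chromosome 4 and 148110630 to 148110764 of chromosome 5. Their widths ran from 135 to 238 bp.

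Ranking by significance brought other regions forward. The highest -log10 q, 23.5, belonged to chromosome 4, 49642304 to 49642441, a 138 bp region with a fold of only 3.45. Its pileup of 105 stood on a background of 29.7, both the highest among the 2465 regions. It lay 815 bp from a region of all 6 lists and 17614 bp from a 3.00 Mb stretch without peaks. The chromosome 12 region followed with a -log10 q of 20.3, and then chromosome 9, 66812456 to 66812594 (17.6, 7.41-fold, 139 bp), 357249 bp from a stretch of 19.6 Mb without peaks. The 4 highest by significance were thus at most 173 bp wide and within 1 Mb of such a stretch. Lower in the 10 highest were wider regions elsewhere, among them 47949307 to 47949551 of chromosome 19 (-log10 q 16.0, 7.82-fold, 245 bp) and 80064034 to 80064458 of chromosome 17 (14.5, 7.79-fold, 425 bp). The ninth, 46260816 to 46261091 of chromosome 11, had a -log10 q of 13.4 at 5.93-fold and 276 bp. Repeats and poorly mapped sequence were not filtered out, and their part in the narrow high regions was not tested.

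Closeness to such stretches was not common among the regions as a whole. Only the longest stretch of each chromosome was used. Its length ran from 1.18 Mb on chromosome 22 to 21.1 Mb on chromosome 1. Whether these stretches are the same kind of place was not examined. Within 1 Mb of the longest stretch without peaks lay 47 of the 2465 regions (1.91%, 1.44 to 2.53%), against 1.797% of the other peaks (1.63 to 1.98%). Of the 64 regions with a -log10 q of at least 10, 5 did (7.81%, 3.38 to 17.02%). They include the highest by significance named above, and the share among other peaks of that significance was not computed. Within 1 Mb of the first or last union region of a chromosome lay 91 regions (3.69%, 3.02 to 4.51%), against 4.16% of the other peaks (3.90 to 4.44%). The intervals of the 2465 regions and of all other peaks overlap in both measures. Other peaks with a -log10 q under 5 had a higher share near the ends, 5.59% (4.82 to 6.47%). Near the longest stretches their share was 1.796% (1.38 to 2.34%). Among regions held alone in other lists, the share near the stretches ran from 1.07% in CCRF_WT4 to 5.60% in CCRF_WT. Near the ends it ran from 3.74% in CB45_KO_4 to 6.62% in CCRF_WT.

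The widest regions varied in strength. The widest, chromosome 17, 78738651 to 78739395, spanned 745 bp at 3.58-fold, with a -log10 q of 3.99 and a pileup of 17. It was followed by a 611 bp region at 174178866 to 174179476 of chromosome 4 (6.03-fold, -log10 q 8.87) and a 585 bp region at 35686778 to 35687362 of chromosome 6 (4.01-fold, -log10 q 3.84). The fifth widest was chromosome 5, 169693816 to 169694395 (580 bp, 4.84-fold, -log10 q 6.41). The chromosome 6 region lay 400 bp from a region that 4 lists held. A width of at least 400 bp was reached by 84 of the 2465 regions, whereas the median width of the other peaks was 498.5 bp.

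Most of the regions stood by themselves. The median gap, which is the number of bases between a region and the nearest peak of any other list, was 12500 bp, with quartiles at 2713 and 40342 bp. The gap was over 10000 bp for 1353 regions. For regions held alone in the other lists the median gap was 13224 bp in CCRF_WT4 and between 15472 and 20583 bp in the remaining ones. The lists set against each other differ in length, and the part of this in the gaps was not tested. The median gap to the nearest region of all 6 lists was 48917 bp for CCRF_WT2 and 49317.5 bp for CCRF_WT4, against 66107 to 94502 bp for the others.

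**Figure D4:**
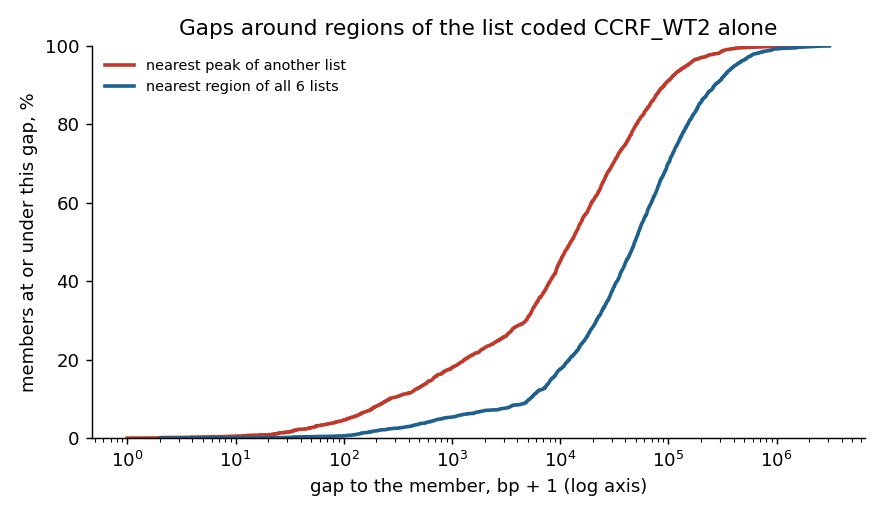
Cumulative percentage of the 2465 regions against the gap to the nearest peak of another list (red) and to the nearest region of all 6 lists (blue), in bp plus 1 on a log axis. The gap was at most 500 bp for 12.9% and at most 10000 bp for 45.1% by the first measure, and for 3.65% and 17.6% by the second.

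A smaller set lay beside peaks of other lists. A gap of at most 500 bp was found for 319 regions (12.9%). The nearest region was held by 1 list in 121 cases and by all 6 lists in 81 cases. In 162 of the 319 cases the neighbour also held a CCRF_WT2 peak, so that the region was listed as separate from a shared neighbour. Peaks of CCRF_WT4 lay within 500 bp of 210 regions, those of CB45_KO_2 of 157, CB45_KO of 135, CB45_KO_4 of 121 and CCRF_WT of 72, and a region can have several. The 319 were lower than the 1353 distant regions, with median folds of 3.72 and 4.37 and shares above a -log10 q of 5 of 18.2% (14.3 to 22.8%) and 29.0% (26.6 to 31.4%). Their median background was higher, at 2.63 against 1.42, and median width was 194 bp against 192 bp.

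Background was higher in regions close to a region of all 6 lists. Median background was between 4.29 and 5.83 in the classes of 1000 bp up to a gap of 4000 bp. It was 2.68 at 4000 to under 5000 bp, and between 1.75 and 1.92 in the classes from 5000 to under 8000 bp. These classes held 14 to 133 regions each, and the numbers showed no lasting step, with 27, 46, 27 and 50 regions in the classes from 4000 bp on. By the gap to any peak of another list, median background was between 2.899 and 3.013 up to 4000 bp, 2.19 at 4000 to under 5000 bp, and between 1.56 and 1.86 from there to under 8000 bp.

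At the limit of the rule, presence turned on single bases. A 143 bp peak on chromosome 15, 40566987 to 40567129, abutted a CCRF_WT4 peak without overlap and so was kept. Regions on chromosome 4, 16003163 to 16003396, and chromosome 17, 62501400 to 62501713, were 1 bp from a peak of another list. Just outside the rule, peaks on chromosome 3, 23852058 to 23852227, and chromosome 14, 64337212 to 64337417, overlapped a CB45_KO peak by 3 bp. One on chromosome 16, 446991 to 447219, overlapped a CB45_KO_2 peak by 3 bp. Folds were 2.50 to 4.80 inside and 3.02 to 4.23 outside.

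The regions were found on all 23 chromosomes examined. The share of a chromosome's CCRF_WT2 peaks that no other list held was lowest for chromosome 19, at 6.75% (5.50 to 8.26%), and highest for chromosome 18, at 12.9% (10.0 to 16.5%). Chromosome 2 held 226 regions, or 12.5% of its peaks (11.1 to 14.1%). Chromosomes 17, 22 and 16 were next to chromosome 19 at the low end, with 7.54% (6.19 to 9.14%), 8.01% (5.91 to 10.8%) and 7.98% (6.39 to 9.93%).

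The gene-rich chromosomes 17, 19 and 22 together held 218 of the 2465 regions (8.84%, 7.79 to 10.0%), against 13.1% of the other CCRF_WT2 peaks (12.7 to 13.6%). This group was chosen with earlier results of these data known, so intervals that lie apart are not a test of it. Weak peaks alone gave the same order. Among peaks with a -log10 q under 5, these chromosomes held 8.23% of the regions held alone (7.04 to 9.59%) and 11.6% of the other peaks (10.5 to 12.8%). At a -log10 q of at least 5 the shares were 10.47% (8.39 to 13.004%) and 13.35% (12.86 to 13.85%). The order was the same there, but these intervals overlap. In the other lists the share among regions held alone was 16.6% for CCRF_WT4 (15.0 to 18.3%) and between 3.82% and 6.28% for the remaining lists. Of the CCRF_WT2 peaks on these chromosomes, 7.28% were held alone, against 10.9% on the other 20. The same shares were 3.89% and 7.60% in CB45_KO_2, 2.36% and 7.06% in CB45_KO_4, and 2.87% and 6.43% in CB45_KO. CCRF_WT had 1.12% and 2.96%, but CCRF_WT4 had 10.7% and 8.83%. A lower share was thus not particular to CCRF_WT2. The direction in CCRF_WT2 rests on CCRF_WT4. Without that list the share was 14.1% among 4031 regions held alone (13.1 to 15.3%) and 12.4% among the other peaks (11.9 to 12.8%), so the order turned. Of the CCRF_WT2 peaks in regions shared with CCRF_WT4 alone, 21.9% lay on these chromosomes (19.8 to 24.1%).

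**Figure D5:**
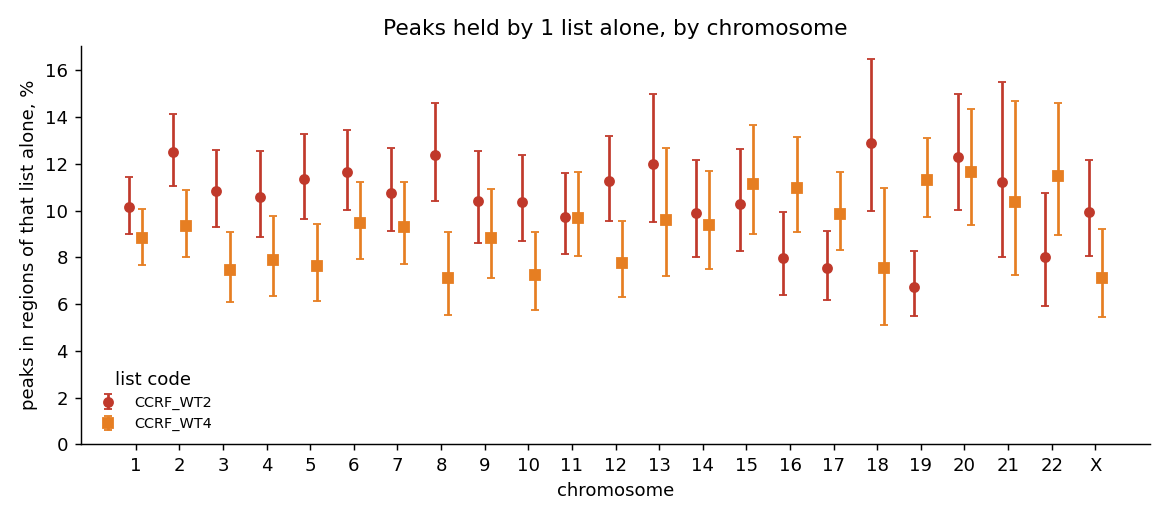
Percentage of the merged peaks of CCRF_WT2 (red circles) and CCRF_WT4 (orange squares) on each chromosome that lie in regions of that list alone, with 95% Wilson intervals. CCRF_WT2 lies lowest on chromosome 19, at 6.75%, where CCRF_WT4 is at 11.3%, and highest on chromosome 18, at 12.9%, where CCRF_WT4 is at 7.52%.

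Along the chromosomes the regions were spread thinly. They fell into 1398 windows of 1 Mb, of 2557 that held a CCRF_WT2 peak, and 786 windows had 1 region. At least 6 regions were found in each of 11 windows. The fullest window of chromosome 1, 156000001 to 157000000, had 8 regions among 37 CCRF_WT2 peaks. The strongest region there was 156415723 to 156415854 (6.61-fold, -log10 q 9.07). The widest there was 156662774 to 156663244 (471 bp, 4.37-fold). No other list held more than 1 region alone in that window.

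Of the 5 fullest windows, 2 had more than 50% of their CCRF_WT2 peaks held alone. Window 142000001 to 143000000 on chromosome 7 had 7 regions among 12 peaks. A pair lay close together at 142495401 to 142495672 (3.80-fold) and 142496448 to 142496691 (3.60-fold), and the strongest, 142700448 to 142700697 (6.54-fold, -log10 q 8.95), was 147492 bp from any peak of another list. Window 9000001 to 10000000 on chromosome 21 had 7 regions among 13 peaks, and all were weak, with folds from 3.00 to 4.12 and no -log10 q above 3.79. A window on chromosome 1 (228000001 to 229000000) and another on chromosome 3 (111000001 to 112000000) had 6 regions each. In the first of these another list also held up to 6 regions alone. Over the genome, 83 pairs of neighbouring regions were within 10000 bp of each other and 25 pairs within 1000 bp.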

How the data were processed

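Peak lists of 6 ATAC-seq libraries, 1 per group, were used. MACS2 2.1.2, the hg19 build, BWA 0.7.17, Trimmomatic 0.39, Trim Galore 0.6.2, Picard 2.9.2 and SAMtools 1.8 were used without stated roles, per the submitters' processing notes. No source used here gives the transposase offset, read extension or duplicate handling, and each can move peak edges and numbers. The authors deposited per entry a score (10 times the -log10 q, truncated), a fold enrichment ratio, a -log10 p-value and a -log10 q-value. Lists hold 1 library code each, so peaks were called per library.

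Entries on the mitochondrial genome and chromosome Y (0.445% to 0.728% of a list) were left out. Overlapping entries of a list were merged, keeping the highest values. Pileup and background were recovered from fold and p under a Poisson model for -log10 p up to 280, and pileups were within 0.02 of a whole number for 99.998% of peaks with a value. Merging, union and recovery were tested on simulated data. The simulated loci lay well apart and pileups came from the same Poisson model. Abutting or barely overlapping peaks and departures from that model were therefore not tried. Read totals were not used, so depth is known only through pileup. Shares carry Wilson 95% intervals. Genes were not located, so the planned gene context was not computed. The members, the chromosome group and the rules were chosen with earlier results of these data known. Named regions are the highest by fold and by significance, the widest, those at the threshold and the fullest 1 Mb windows, shown in part. Alternatives were a stricter q, other overlap rules, lists of equal length, no peaks of 170 bp or less, each other list left out and the title-code placement. Python 3.11.15, pandas 2.3.3 and scipy 1.17.1 were used.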

Additional observations from a re-analysis of the deposited data

How the results depend on the processing

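The number of regions held by CCRF_WT2 alone was 2465. It was 678 when only these had to reach a -log10 q of at least 5, and 424 in lists of equal length, where fewer peaks enter. Other rules of overlap, distance, width and a -log10 q of at least 5 in all lists gave 1758 to 2826. Similar numbers did not mean the same regions. With a -log10 q of at least 5 in all lists, 678 of the 1758 regions were among the 2465. Without peaks of 170 bp or less, 1583 of 2113 were. Leaving out each other list gave 2556 to 4031, the highest without CCRF_WT4. The share of regions with a -log10 q of at least 5 was 100% in lists of equal length, since the lowest CCRF_WT2 value kept there was 9.18, and 36.3% without peaks of 170 bp or less. Leaving out each other list gave 28.0% to 39.5%. With both stricter thresholds the share is 100% by construction. Median width, 194 bp, was 253 bp with a -log10 q of at least 5 in all lists, 221 bp with it in CCRF_WT2 only, 310.5 bp in lists of equal length and 239 bp without narrow peaks, and 194 to 214 bp leaving out each other list. Median fold, 4.24, was 5.32, 5.29, 6.75 and 4.37 under the same alternatives in that order, 4.34 when peaks within 500 bp counted as shared, and 4.26 to 4.37 leaving out each other list. The share on chromosomes 17, 19 and 22, 8.84%, was 10.5% with a -log10 q of at least 5 in CCRF_WT2 only, 12.5% in lists of equal length, and 8.37% to 14.1% leaving out each other list, the highest without CCRF_WT4. Leaving out CCRF_WT4 adds the regions that only it shared with CCRF_WT2. Of the CCRF_WT2 peaks in those regions, 21.9% lay on these chromosomes, and the cause of that share was not tested. Title-code placement changes no value by construction, since it renames the treatments and leaves the peaks as they are. No paired analysis was possible because each group has 1 library. Summit pileups were as low as 8 reads, which limits every count of presence and absence.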
